A study of Mus musculus with 6 samples.

Results

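The genes described here are the receptors that pass a Wnt signal into the cell: 8 Frizzled receptors (Fzd1, Fzd2, Fzd4, Fzd5, Fzd6, Fzd7, Fzd8 and Fzd10) and the co-receptors Lrp5 and Lrp6. They were found by the gene name that the array files give each probe, which yielded 16 probes for the 10 genes, of 41174 probes in all and 41115 left once outlier spots were dropped. Each gene was read from its brightest tested probe, and all 10 passed the filter on dim probes, among 17778 genes tested. Each of these 10 probes was well above background on all 6 arrays.

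Frizzled receptors are proteins with several membrane-spanning helices and a cysteine-rich outer domain that binds the lipid of a Wnt ligand. A Wnt that binds a Frizzled and Lrp5 or Lrp6 together stabilises beta-catenin, which then turns on target genes with Lef1 and the Tcf factors. In skin this route is known for starting and growing hair follicles, and a branch without Lrp orients cells and hairs within the sheet. Secreted frizzled-related proteins such as SFRP4, named in the series title, compete with the receptors for Wnt ligands.

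The RNA was that of whole skin from the back of females of the inbred mouse strain C57BL/6J, aged 6 to 8 weeks. Their shaved backs received 62.5 mg of cream each day for 7 days, either with 5% imiquimod, a Tlr7 agonist that provokes a psoriasis-like inflammation, or vehicle. Each group held 3 samples on 1 single-colour Agilent array each. The labels do not say that each sample was a separate animal, so the p-values reflect sample-to-sample spread of which some may be technical.

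The treatment of each array was taken from the word in its scanner file name. In 6 of 6 files that word is the opposite of the title of the sample the file is filed under. The deposited value table, read by sample title, matched the file of the same treatment word and number in 6 of 6 columns, with a Spearman correlation of at least 0.9999997 against at most 0.953 with any file of the other group. All 8 tested genes of a list known to rise in imiquimod-treated skin were higher in the arrays named for imiquimod, with a median log2 difference of 4.50. Grouping the arrays as filed would keep the size of every difference given here and turn its sign.

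Slide 1 held all 3 vehicle arrays and imiquimod array 1, and slide 2 held imiquimod arrays 2 and 3. Vehicle arrays 2 and 3 carried the quality status evaluate in their file headers. Pearson correlations over probes were 0.992 within imiquimod and 0.960 to 0.983 within vehicle, so the vehicle arrays were the more varied group. Values are log2 signal relative to the 75th percentile of the array. A level cannot be compared between genes, because each probe has its own brightness, and in whole skin fewer cells of a type cannot be told apart from less RNA per cell.

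In imiquimod-treated skin 5 of the 10 receptors were lower at an adjusted p under 0.05 (limma): Fzd7, Fzd5, Fzd1, Fzd2 and Lrp6. An unadjusted p under 0.05 was reached by 7 of the 10, against 39% of all genes. None was higher, and Fzd4, Fzd6, Fzd8, Fzd10 and Lrp5 did not pass. Of all genes tested, 10.5% were lower and 13.1% higher, and 23.6% changed in either direction. The members' median difference was -0.71 on the log2 scale, against 0.023 over all genes tested. The groups did not overlap in 8 of the 10 genes, against 46.6% of all genes. Counted over probes, 15 of 16 had the lower mean in imiquimod, with 6 genes counted by 2 probes each. The 15 include the second Fzd8 probe, well above background on 0 imiquimod arrays. Over genes, 9 of 10 had the lower mean. The same shares over all probes and all genes were not counted. When every probe was fitted on its own, 7 of the 16 passed as lower and 0 as higher, against 9.72% of all probes passing as lower and 21.2% in either direction. The count of 5 fell to 1 with slide as a block, to 1, 1 and 2 without imiquimod array 1, 2 or 3, to 1 without vehicle array 1, and to 2 with no filter on dim probes. Lower calls over all 17778 genes fell too, from 1866 to 518 with slide as a block. They ran from 745 to 2215 with 1 array left out. With no filter on dim probes 1310 of 27310 genes were lower.

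**Figure D1:**
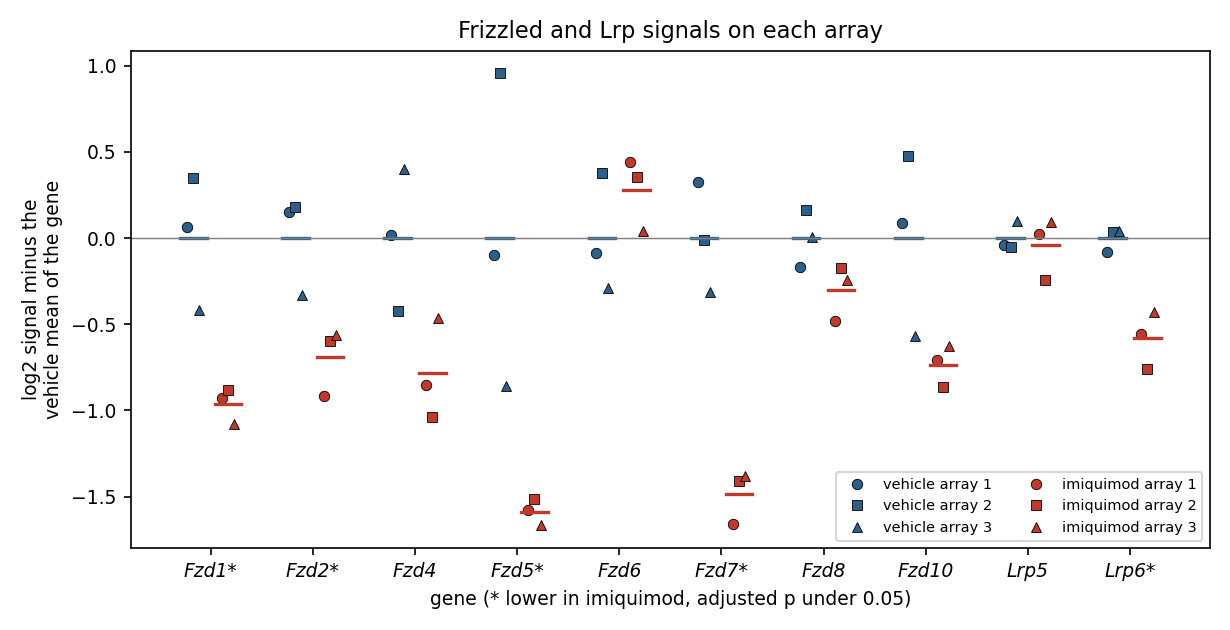
Log2 signal of each of the 10 genes on each array, as the distance from that gene's vehicle mean (y axis); blue is vehicle, red imiquimod, and short bars are group means of 3 arrays. The Fzd5 and Fzd7 points of imiquimod lie farthest below the vehicle mean, and the vehicle arrays of Fzd5 and Fzd10 are widely spread.

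Fzd1, Fzd2 and Fzd7 are the closest relatives among the members. Their likeness reaches the array: of 114 pairs of probes from different members, a Fzd2 and a Fzd7 probe were the most alike, with 42 of 50 aligned bases identical (84%). They are printed because a probe this alike could pick up some of the other's RNA, which was not tested, with identical aligned bases in capitals.
Fzd2: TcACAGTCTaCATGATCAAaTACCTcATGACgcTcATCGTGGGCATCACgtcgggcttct
Fzd7: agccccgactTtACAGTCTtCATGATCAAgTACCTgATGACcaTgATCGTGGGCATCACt
Per the array files, the first lies at chr11:102467613-102467672 and the second at chr1:59541367-59541426, both on the plus strand of mm9. No exon annotation of mm9 was used. Of the 8 differences, 6 fell at the same position of the triplet. The remaining probe pairs shared at most 68.8% of their aligned bases.

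Fzd7, a receptor known in epithelial stem and progenitor cells, gave the smallest p of the members. Its log2 signal was -1.23, -0.98 and -0.95 on imiquimod arrays 1, 2 and 3, and 0.76, 0.42 and 0.12 on the vehicle arrays. Every imiquimod array lay over 1 log2 unit below every vehicle array. The difference was -1.48 (SE 0.19, adjusted p = 0.00573), which is 2.80-fold lower (95% confidence interval 2.02 to 3.87). The probe printed above, at another place in the transcript, was dimmer and differed by -1.51 (SE 0.36, adjusted p = 0.0335 over all probes). The 2 Fzd7 probes thus gave nearly the same difference between group means, but they ordered the vehicle arrays differently. Vehicle array 3 was the lowest vehicle array at the first probe. At the second it was the highest, with -3.58, -3.56 and -2.31 on vehicle arrays 1, 2 and 3. Fzd7 was the member that stayed past the threshold with slide as a block, and its difference was -1.66 within slide 1, where 3 arrays met 1 and it did not pass (adjusted p = 0.125).

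Fzd1, its relative, stood at 2.16, 2.20 and 2.01 with imiquimod and at 3.15, 3.44 and 2.67 with vehicle. The imiquimod arrays lay within 0.20 of each other and below all vehicle arrays. The difference was -0.96 (SE 0.21, adjusted p = 0.0252), or 51.3% of the vehicle level. With slide as a block it was -0.93 (adjusted p = 0.165), and without imiquimod array 1, 2 or 3 or vehicle array 1 the adjusted p was 0.0807, 0.0741, 0.0879 and 0.0899.

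Fzd2, the third of these relatives, stood at 1.65, 1.97 and 2.01 with imiquimod and at 2.72, 2.75 and 2.24 with vehicle. Vehicle array 3 was closest to the imiquimod arrays, with no overlap. The difference was -0.69 (SE 0.19, adjusted p = 0.0463), from the probe printed above. A second, dimmer probe differed by -0.71 (SE 0.26) and did not pass over all probes (adjusted p = 0.102). The Fzd2 call lay near the threshold: with slide as a block the difference was -0.92 (adjusted p = 0.111), and the adjusted p was 0.140, 0.107 and 0.0972 without imiquimod array 1, 2 or 3 and 0.143 and 0.0861 without vehicle array 1 or 2.

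Fzd5, a receptor of both Wnt branches, had the widest spread of the members among the vehicle arrays, and a difference close to that of Fzd7. Its signal was -2.58, -2.51 and -2.66 on the imiquimod arrays and -1.10, -0.04 and -1.86 on the vehicle arrays. The imiquimod arrays were almost level, while the vehicle arrays spanned nearly 2 log2 units. The difference was -1.59 (SE 0.44, adjusted p = 0.0493), or 3.00-fold with a 95% confidence interval of 1.42 to 6.35. Without vehicle array 2 it was -1.11, and without vehicle array 3 -2.02. Its second probe, well above background on 2 of 3 imiquimod arrays, differed by -0.74 (SE 0.21, adjusted p = 0.0505 over all probes). It did not pass once slide was a block (-1.58, adjusted p = 0.230), nor, at adjusted p = 0.133, 0.122, 0.134 and 0.124, without imiquimod array 1, 2 or 3 or vehicle array 1. It also did not pass with quantile normalization (-1.52, adjusted p = 0.0610), with normexp background correction (-1.25, adjusted p = 0.0537) and in the deposited value table (-1.51, adjusted p = 0.0609).

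Fzd8, the close relative of Fzd5, was dim in both groups. Its signal was -4.35, -4.04 and -4.12 with imiquimod and -4.04, -3.71 and -3.86 with vehicle. The difference of -0.30 (SE 0.14, adjusted p = 0.174) did not pass, and its 95% confidence interval ran from -0.65 to 0.047. The second probe was well above background on 0 of 3 imiquimod arrays and 3 of 3 vehicle arrays, at means of -5.92 and -5.25, and its bound was 1.01-fold.

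Fzd4, which besides Wnts binds the ligand norrin (Ndp) and is known for its part in vessel growth, stood at 1.30, 1.12 and 1.69 with imiquimod and at 2.18, 1.74 and 2.56 with vehicle. The groups did not overlap, by a gap of 0.04. The difference was -0.79 (SE 0.26, adjusted p = 0.0737) and did not pass, but without vehicle array 2 it was -0.995 (adjusted p = 0.0330). With 1 array left out in turn it ran from -0.9954 to -0.584, and it passed only in that fit. Fzd4 was highest on vehicle array 3, the array on which most of its relatives were lowest. Of 7 endothelial markers 5 were higher with imiquimod and 0 lower, against 13.1% and 10.5% of all genes tested. The count of higher markers was 3 without imiquimod array 1, 2 or 3 or vehicle array 1. Tie1, a receptor of endothelial cells, differed by 1.47 (SE 0.17, adjusted p = 0.00474). With slide as a block Tie1 was the only marker of the 7 to pass. Whether Fzd4 follows endothelial content was not tested.

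Fzd10 stood at 2.26, 2.11 and 2.35 with imiquimod and at 3.06, 3.45 and 2.41 with vehicle. Vehicle array 3 lay just above the imiquimod arrays. The difference was -0.73 (SE 0.27, adjusted p = 0.102), and the second probe differed by -0.89 (SE 0.33, adjusted p = 0.108 over all probes). Neither passed, but without vehicle array 3 the difference of Fzd10 was -1.02 (adjusted p = 0.0146). With 1 array left out in turn it ran from -1.017 to -0.4945, and it passed only in that fit.

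Fzd6, known for directing hair orientation through the planar polarity branch, was the only member with a higher mean in imiquimod. It stood at 1.42, 1.33 and 1.02 with imiquimod and at 0.89, 1.35 and 0.69 with vehicle, and the groups overlapped. The difference was 0.28 (SE 0.21, adjusted p = 0.371), with a 95% confidence interval of -0.24 to 0.79.

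**Figure D2:**
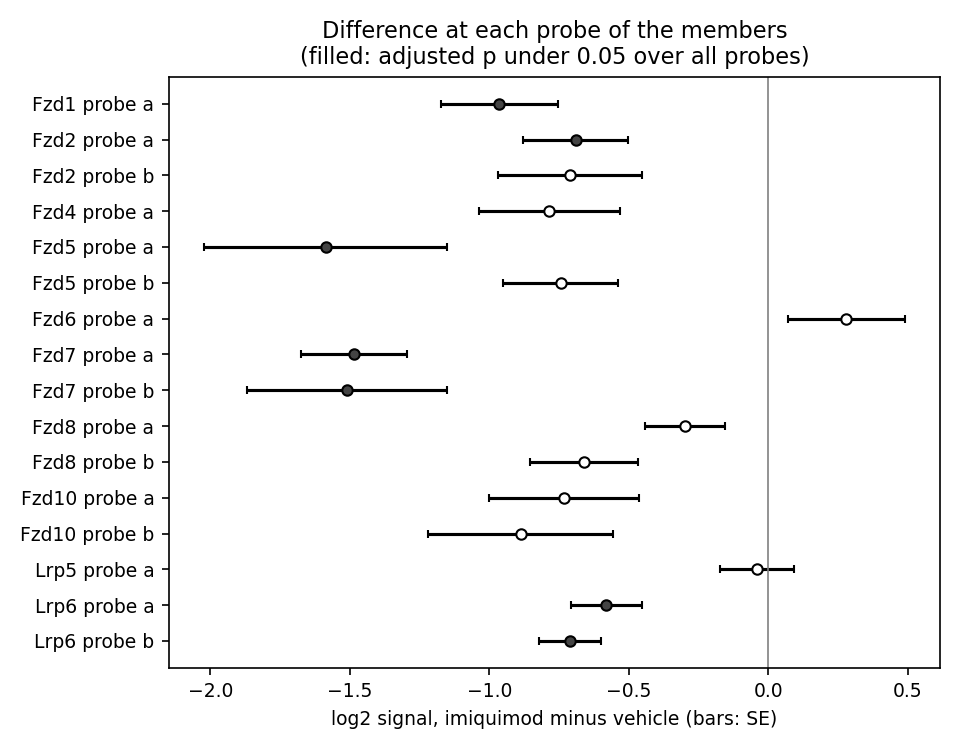
Difference in log2 signal, imiquimod minus vehicle, at each of the 16 probes (x axis) with its SE; probe a is the probe that stands for the gene and probe b its second probe, and filled points passed over all probes. The pairs of Fzd2 and Fzd7 probes nearly coincide, those of Fzd5 and Fzd8 lie farther apart, and Fzd6 is the only point above 0.

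The co-receptors Lrp5 and Lrp6 are large single-pass proteins that share the role of passing the signal from a Wnt-bound Frizzled to Axin. Lrp6 stood at -1.78, -1.98 and -1.65 with imiquimod and at -1.30, -1.19 and -1.18 with vehicle. The vehicle arrays were close together and all above the imiquimod arrays. The difference was -0.58 (SE 0.12, adjusted p = 0.0241), or 66.8% of the vehicle level. Its second probe differed by -0.71 (SE 0.11, adjusted p = 0.0102 over all probes). That probe lies 91076 bases from the first in mm9 and is tied by the array file to an unclassified cDNA clone, and whether it lies in an exon of Lrp6 was not determined. The first probe did not pass once slide was a block (-0.56, adjusted p = 0.164), nor without imiquimod array 1 or 2 or vehicle array 1 (adjusted p = 0.0788, 0.0803 and 0.0706). Testing dim probes too raised its adjusted p to 0.0567. Without both evaluate arrays it was -0.50 (adjusted p = 0.134).

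Lrp5 stood at 0.94, 0.67 and 1.01 with imiquimod and at 0.87, 0.86 and 1.01 with vehicle, and the groups overlapped. The difference was -0.043 (SE 0.13, adjusted p = 0.836), with a 95% confidence interval of -0.36 to 0.28. Among the members this was the difference closest to 0. Whether Lrp5 and Lrp6 differed from each other in their response was not tested.

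Promoter sequence was at hand for 5 members, from RefSeq on GRCm38.p6, as the 250 bases before the start site. Fzd7 and Fzd1 are printed, as lower genes of 1 subfamily, with matches to the GC box (GGGCGG, on either strand) in capitals.
Fzd7: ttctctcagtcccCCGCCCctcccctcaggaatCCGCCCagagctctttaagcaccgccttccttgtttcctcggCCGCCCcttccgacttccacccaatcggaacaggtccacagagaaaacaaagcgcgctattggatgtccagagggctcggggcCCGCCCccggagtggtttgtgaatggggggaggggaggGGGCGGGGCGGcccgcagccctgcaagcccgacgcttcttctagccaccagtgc
Fzd1: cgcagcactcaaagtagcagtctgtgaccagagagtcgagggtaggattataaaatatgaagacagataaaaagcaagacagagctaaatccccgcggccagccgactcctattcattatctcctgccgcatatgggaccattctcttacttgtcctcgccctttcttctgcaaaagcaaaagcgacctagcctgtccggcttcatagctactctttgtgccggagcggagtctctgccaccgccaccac
They lie at chr1:59481897-59482146 on the plus strand and chr5:4758217-4758466 on the minus strand. Fzd7 held 6 GC boxes, overlapping matches counted singly, and Fzd1 held 0. Fzd4, Fzd5 and Fzd10 held 7, 9 and 1, and 32.7% of 32851 promoters held at least 1. The Tcf and Lef motif ATCAAAG and the AP-1 motif TGANTCA, searched on both strands, had 0 matches in the 5 promoters, against 3.21% and 6.75% of all promoters with a match. The 5 promoters held 12 to 37 CpG dinucleotides, against a median of 6 over all promoters, and 33.5% of all promoters held at least 12. Methylation was not measured in these samples.

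Hair follicle genes were lower too, where of all genes tested 10.5% were lower. All 5 tested markers of the inner root sheath were lower with imiquimod, and Krt71, a keratin of that sheath, well above background on 2 of 3 imiquimod arrays, differed by -12.01 (SE 0.82, adjusted p = 0.00162). Of the hair shaft and matrix markers 5 of 9 were lower and 0 higher. Krt33a, of the smallest p among them, was well above background on 3 of 3 vehicle arrays and 1 of 3 imiquimod arrays, so the size of its difference is not given. None of these 5 was well above background on all imiquimod arrays, so they were tested through their vehicle signal. Among the 3 hair shaft and matrix genes well above background on all 6 arrays 0 were lower, with a median of -0.66, against 3 of 3 for the inner root sheath. Krt33b, a hair keratin, had the higher mean in imiquimod, at 2.39 (SE 1.29, adjusted p = 0.226), and passed as higher without vehicle array 2 and without both evaluate arrays. Of the outer root sheath and bulge markers 4 of 6 were lower and 0 higher, with Krt15, a keratin of the bulge, at -2.12 (SE 0.32, adjusted p = 0.00937). The defining markers Krt25, Krt34 and Krt86 were well above background on 0 imiquimod arrays. The sebaceous gland list had 4 of 5 lower, with Elovl3 at -5.41 (SE 0.50, adjusted p = 0.00263). Of these 4, 2 were well above background on all imiquimod arrays. Scd3 and Awat2 were so on 1 of 3 and were tested through their vehicle signal. Among the 3 sebaceous genes well above background on all 6 arrays 2 were lower, with a median of -1.89. With slide as a block 3 inner root sheath, 1 hair shaft and matrix, 2 outer root sheath and bulge and 4 sebaceous markers were lower. The hair shaft count was 3 without any 1 imiquimod array or without vehicle array 1, and the outer root sheath and bulge count was 2, 2 and 1 without imiquimod array 1, 2 or 3 and 1 without vehicle array 1.

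The same lists set the vehicle arrays apart from each other. With every gene centred on its 6-array mean, the hair shaft and matrix median was 4.69, 6.28 and -0.047 on vehicle arrays 1, 2 and 3 and -3.54 to -2.51 on the imiquimod arrays. The inner root sheath median was 4.77, 5.83 and 1.67 on the vehicle arrays and -5.88 to -3.54 with imiquimod. Vehicle array 2 was the highest of the vehicle arrays in both lists and vehicle array 3 the lowest. That order, array 2 over 1 over 3, was shared by 5 of the 8 Frizzled genes, Fzd1, Fzd2, Fzd5, Fzd6 and Fzd10, against 24.5% of all genes tested. Lrp5 and Lrp6 did not share it, and Fzd2 was nearly level on vehicle arrays 1 and 2 (2.72 and 2.75). The second Fzd10 probe shared it. The second probes of Fzd2 (-1.20, -1.25 and -1.72 on vehicle arrays 1, 2 and 3) and Fzd5 (-4.24, -3.80 and -3.91) did not. The members' own median was 0.43, 0.43 and 0.091 on the vehicle arrays and -0.44 to -0.18 on the imiquimod arrays. The outer root sheath and bulge median did not share the order, at 0.81, 0.74 and 0.94. The part of hair follicle content in the receptor differences was not tested.

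Markers of several other cell types were higher with imiquimod, where of all genes tested 13.1% were higher and 10.5% lower. Of the basal epidermis markers 3 of 6 were higher and 0 lower, with Krt14 at 2.25 (SE 0.15, adjusted p = 0.00155), and of the fibroblast markers 4 of 7 were higher and 0 lower, with Col1a1 at 0.89 (SE 0.095, adjusted p = 0.00361). All 5 neutrophil markers were higher, with Ngp, a granule protein well above background on 0 vehicle arrays, at least 16-fold higher (adjusted p = 0.00127). Mmp8 was well above background on 1 of 3 vehicle arrays. The 3 neutrophil genes well above background on all 6 arrays were all higher. Of the macrophage markers 3 of 6 were higher, with Adgre1 at 2.74 (SE 0.45, adjusted p = 0.0111). Among Langerhans cell markers 2 of 4 were lower, with Epcam at -1.32 (SE 0.14, adjusted p = 0.00331). The suprabasal list had 1 of 5 higher and 1 lower, with Krt2 well above background on 0 imiquimod arrays and at least 6.45-fold lower (adjusted p = 0.00143). Of the T cell and adipocyte lists 1 of 6 (16.7%) and 1 of 5 (20%) genes were lower, against 10.5% of all genes. These were Lck at -1.09 (SE 0.22, adjusted p = 0.0218) and the fat hormone gene Lep at -2.07 (SE 0.26, adjusted p = 0.00549). Of the muscle and melanocyte lists 0 passed. Myh2, the muscle gene of smallest p, differed by -1.24 (SE 0.44, adjusted p = 0.0907) and Dct, the melanocyte one, by -1.52 (SE 0.70, adjusted p = 0.167). All 4 melanocyte markers were lower without vehicle array 3, which was also low for the hair shaft list. With slide as a block Lck and Lep did not pass, and Lck also did not without imiquimod array 1 or 3 or vehicle array 1. Under that block 0 suprabasal markers were higher, 1 Langerhans cell marker was lower, and 1 basal, 1 fibroblast, 2 neutrophil and 0 macrophage markers were higher. Without imiquimod array 1, 2 or 3 or vehicle array 1, the count was 2 for fibroblasts, 1 for macrophages and 3 for endothelium. The basal count was 1 without imiquimod array 1 or 3, and the neutrophil count 3 without imiquimod array 1 or 2.

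**Figure D3:**
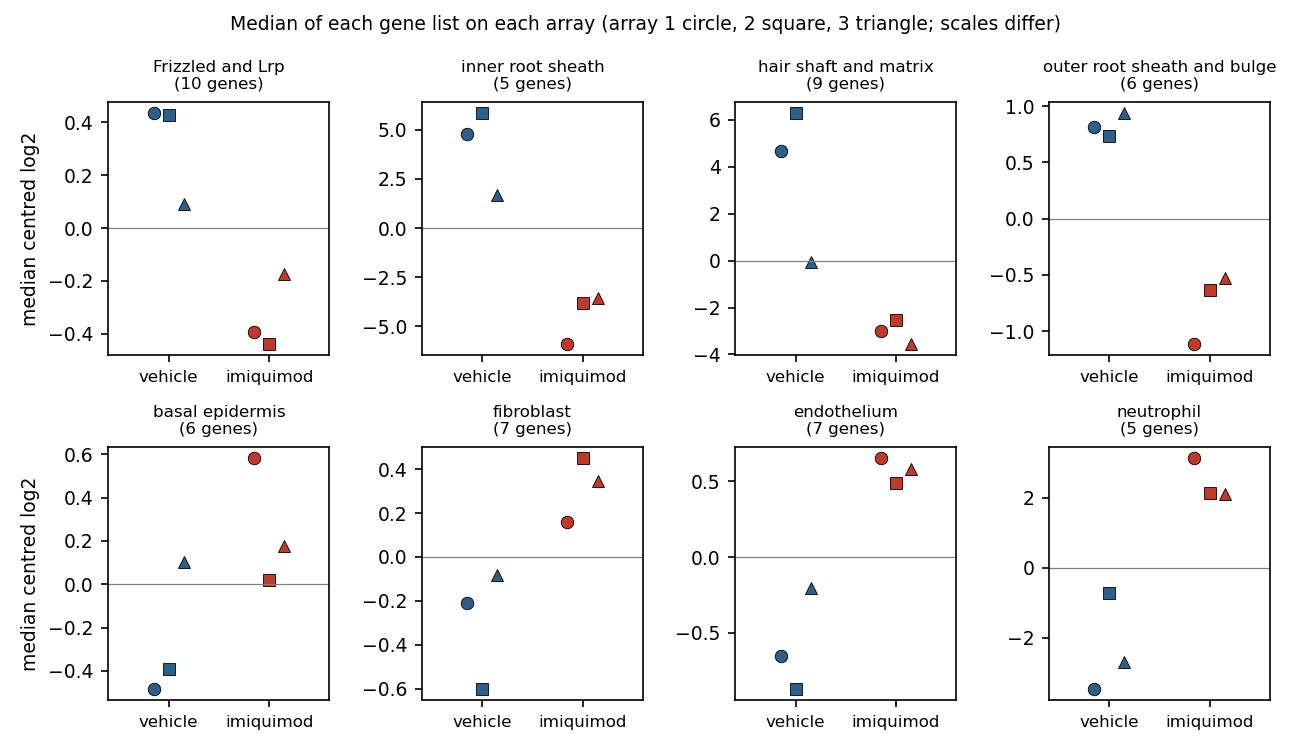
Median log2 signal of each gene list on each array, with every gene centred on its 6-array mean (y axis, with its own scale per panel). The receptors and the inner root sheath and hair shaft lists are high on vehicle arrays 1 and 2 and lower on vehicle array 3, while the fibroblast, endothelium and neutrophil lists are higher on the imiquimod arrays.

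Outside the 10 members, other receptors of Wnt ligands were mixed: of 7 tested 2 were lower (28.6%), 0 higher and 5 did not pass, with a median of -0.15. Of all genes tested, 10.5% were lower and 13.1% higher, for this and the following Wnt lists. Fzd3, another Frizzled of the planar polarity branch, was lower by a larger amount than any member, at -1.86 (SE 0.17, adjusted p = 0.00265). Ror1, a receptor tyrosine kinase for Wnt5a, was well above background on 0 imiquimod arrays and at least 1.28-fold lower (adjusted p = 0.0304). It was tested through its vehicle signal. Among the 6 genes of this list well above background on all 6 arrays 1 was lower, Fzd3, and their median was -0.0545. Fzd3 passed with each array left out in turn and with slide as a block. Ror1 lost its call with slide or replicate number as a block and without imiquimod array 2 or any 1 vehicle array. It also did not pass with quantile normalization, normexp background correction, no filter on dim probes, a variance trend or in the deposited value table. The median of the 7 genes turned to 0.052 without imiquimod array 2 and to 0.011 without vehicle array 3.

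R-spondins, their Lgr receptors and the ligases they block control how many Frizzled receptors stay at the cell surface. Of 6 tested R-spondin, Lgr and ligase genes 2 were lower (33.3%, against 10.5% of all genes), 0 higher and 4 did not pass, with a median of -0.74. Lgr4, an R-spondin receptor, differed by -1.40 (SE 0.15, adjusted p = 0.00331), and Lgr6, found in hair follicle progenitors, by -1.76 (SE 0.49, adjusted p = 0.0493). Znrf3 and Rnf43, the ligases that remove Frizzled receptors, differed by -0.23 (adjusted p = 0.393) and -0.73 (adjusted p = 0.0874). Rspo2, Rspo3 and Rspo4 were too dim to test. Lgr4 passed with each array left out, and Lgr6 did not pass without imiquimod array 1, 2 or 3, vehicle array 1 or vehicle array 3. Lgr6 also did not pass with probes averaged by gene, with no filter on dim probes or with replicate number as a block.

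Of the 10 genes for receptor folding, partners and inhibitors, 3 were lower, 1 was higher and 6 did not pass, with a median of -0.42. These shares, 30% lower and 10% higher, stand against 10.5% and 13.1% of all genes tested. Shisa2, which holds Frizzled receptors inside the cell, differed by -2.61 (SE 0.14, adjusted p = 0.00116), and Kremen2, which helps remove Lrp6, by -0.60 (SE 0.11, adjusted p = 0.0150). Ndp, the norrin ligand of Fzd4, was lower by -1.60 (SE 0.43, adjusted p = 0.0438). Adgra2, a vessel receptor that works with Frizzled receptors, rose by 1.14 (SE 0.12, adjusted p = 0.00331). Mesd, the chaperone of Lrp5 and Lrp6, differed by 0.016 (adjusted p = 0.932). Shisa2 and Adgra2 passed with each array left out. Ndp passed in 1 of these 6 fits, that without imiquimod array 1. Kremen2 lost its call under the slide block and without imiquimod array 1 or 2 or vehicle array 1. The count of lower genes was 1 without imiquimod array 2 or vehicle array 1.

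Of 15 genes that relay the signal to beta-catenin, 2 were lower, 1 higher and 12 did not pass, with a median of -0.059. These shares, 13.3% lower and 6.67% higher, were near the 10.5% and 13.1% of all genes tested. Dvl2, which binds the inner side of Frizzled, differed by -0.61 (SE 0.15, adjusted p = 0.0392). Its relative Dvl1 differed by 0.37 (SE 0.098, adjusted p = 0.0430), and Ctnnbip1, an inhibitor of beta-catenin, by -0.92 (SE 0.098, adjusted p = 0.00357). Ctnnb1, beta-catenin itself, differed by -0.090 (SE 0.22, adjusted p = 0.797). Ctnnbip1 passed with each array left out, while Dvl1 and Dvl2, of these fits with 5 arrays, passed only in the one without vehicle array 3. Dvl1 and Dvl2 also lost their calls with quantile normalization, in the deposited value table and with no filter on dim probes. The same held with slide or replicate number as a block. Averaging probes by gene ended the Dvl1 call too. The median turned to 0.079 without vehicle array 2 and to 0.0061 without imiquimod array 2.

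Of 11 tested nuclear partners of beta-catenin, 3 were lower, 1 higher and 7 did not pass, with a median of -0.26. These shares, 27.3% lower and 9.09% higher, stand against 10.5% and 13.1% of all genes tested. The lower genes were Tcf7l1 at -0.74 (SE 0.13, adjusted p = 0.0140), its relative Tcf7l2 at -0.75 (SE 0.14, adjusted p = 0.0157) and Lef1, also a gene of the hair matrix, at -3.18 (SE 0.73, adjusted p = 0.0287). Pygo2, a co-activator, was higher at 0.39 (SE 0.10, adjusted p = 0.0438). Pygo2 did not pass with quantile normalization, in the deposited value table, with no filter on dim probes or without vehicle array 3. Of 11 planar cell polarity genes, 4 were lower (36.4%), 0 higher and 7 did not pass, with a median of -0.35. Celsr1, a large cadherin at cell contacts, had the smallest p, at -0.91 (SE 0.20, adjusted p = 0.0238). Ankrd6 followed at -0.55 (SE 0.12, adjusted p = 0.0277), and Vangl2 and Prickle2 also passed, at -0.97 and -0.85. With slide or replicate number as a block, and without imiquimod array 1 or 2 or vehicle array 1, 0 genes of either list passed. With no filter on dim probes Celsr1 was the only polarity gene to pass, and with probes averaged by gene Vangl2 and Prickle2 did not pass. Without imiquimod array 3, 2 nuclear partners and 0 polarity genes were lower, and without vehicle array 2, 2 polarity genes were.

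**Figure D4:**
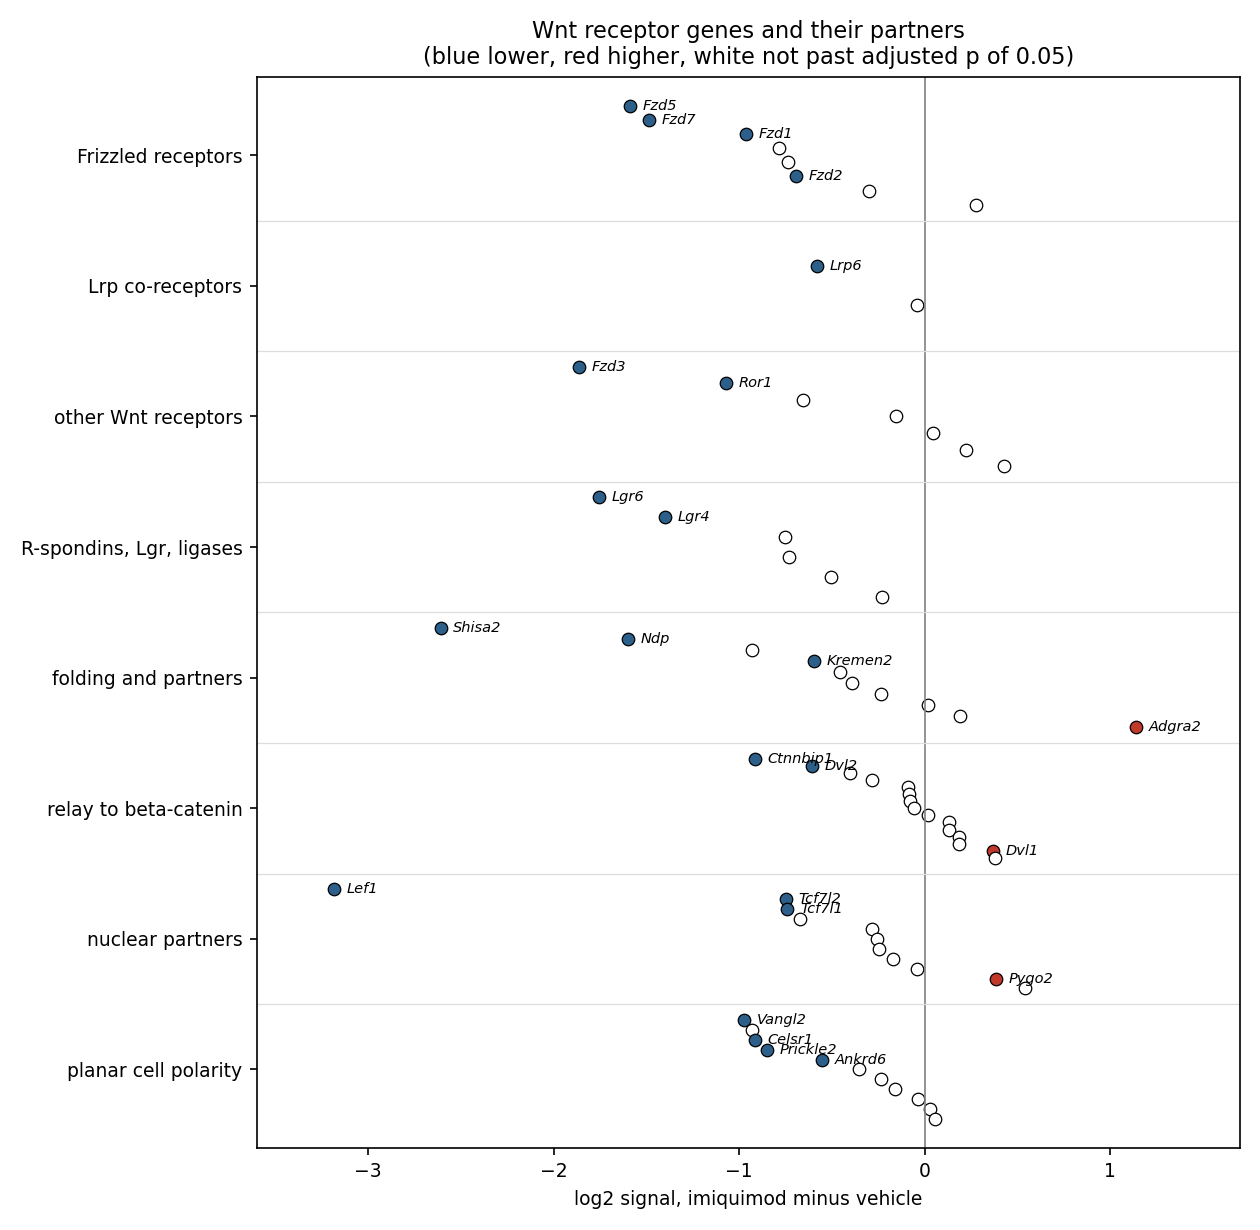
Difference in log2 signal, imiquimod minus vehicle (x axis), of every tested gene in the Frizzled, Lrp and 6 further Wnt lists (rows; points are spread vertically for legibility). Blue points passed as lower and red as higher; Lef1, Shisa2 and Fzd3 lie lowest, and genes relaying the signal to beta-catenin cluster near 0.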

How the data were processed

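Total RNA of 6 skin samples was measured on single-colour (Cy3) Agilent arrays. The deposited scanner files give spot intensity on a linear scale. Those headers name Agilent Feature Extraction 10.7.3.1 and the submitters' processing notes 9.1. A value table deposited by the authors holds log2 values whose normalization is not stated. Its slope against log2 scanner signal was 0.973 to 1.01, and each column's median was 7.05.

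Control spots and 322 outlier spots were left out and a probe's spots averaged, leaving 41115 probes. Values were log2 processed signal minus the 75th percentile of each array (signals of 861 to 1106). Probes well above background on at least 3 of 6 arrays were tested (27415), and the brightest stood for its gene (17778 genes, named through RefSeq accessions, symbols or synonyms). The comparison used lmFit and eBayes of limma 3.58.1 under R 4.3.3 (no covariates, two-sided, Benjamini-Hochberg over all genes). The fit was tried on simulated data with equal spread in both groups and no slide effect. That trial does not cover unequal spread or a slide effect. Where a gene was not well above background in a group, its fold is a bound against each array's dimmest probe that was. The number of arrays limits the precision.

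Members, gene lists and the rule for named genes (all members; from each Wnt list the 2 called genes of smallest p in each direction; from each cell type list the 1 of smallest p) were chosen with earlier results of these data known. Other genes named were chosen after their values were seen. Alternatives were other normalization, background correction, dim-probe filters, probe summaries, variance model, the value table, slide and replicate number as blocks, slide 1 alone, and each array left out.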

Additional observations from a re-analysis of the deposited data

How the results depend on the processing

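Of 18 alternatives, 1, leaving out both vehicle arrays of quality status evaluate, was chosen after seeing the data; it leaves 1 vehicle array, assumed to vary like the imiquimod arrays. The count of lower members was 5, and 4 or 5 under quantile normalization, normexp correction, a stricter dim-probe filter (6 of 6 arrays), averaging probes by gene, single probes, a variance trend, the value table and that added alternative. It was 2 with no filter on dim probes, 1 with slide as a block, 0 within slide 1, 3 with the replicate number as a block, and 1 to 6 with 1 array left out. With the replicate block Fzd4 passed (adjusted p = 0.0388) and Fzd2, Fzd5 and Lrp6 did not (0.103, 0.0644 and 0.0699), nor did Ndp, Kremen2 or Lck; 0 members were higher in any of these. Fzd7 kept its call in 17 of 18 alternatives, Fzd1 in 12, Lrp6 in 10, Fzd2 in 7 and Fzd5 in 7. Lrp5 was the only member whose sign turned, to 0.024 with slide as a block and within slide 1, 0.058 without imiquimod array 2, 0.0058 without vehicle array 3 and 0.000021 in the added alternative; with 1 array left out it ran from -0.1105 to 0.058.

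Over all genes, 541 were higher and 518 lower with slide as a block, 7 and 1 within slide 1, 1164 and 1043 with the replicate number as a block, and 944 to 2514 and 745 to 2215 with 1 array left out. Slide 2 held imiquimod arrays only, so the block and slide 1 alone give the same estimates, and both moved the medians of the R-spondin (-0.99), folding and partner (-0.669), nuclear partner (-0.475) and planar polarity (-0.526) lists. With 1 array left out the median ran from -0.629 to 0.052 for other Wnt receptors, -1.07 to -0.589 for the R-spondin list, -0.0555 to 0.079 for the relay and -0.514 to -0.286 for planar polarity, and that of other Wnt receptors was -0.351 in the added alternative. The slide block and slide 1 estimates rest on imiquimod array 1 alone against the vehicle arrays. With every gene centred on its 6-array mean, that array had the lowest median in the lists they moved. It stood at -0.606 (R-spondin), -0.454 (folding and partners), -0.389 (nuclear partners) and -0.199 (planar polarity). Why it was lowest, and why the medians moved in the other fits, was not tested. Same-numbered arrays shared only a number: their deviations correlated at -0.0872, 0.0676 and 0.0854 across genes, and 2 of 6 arrays correlated best with their own number. Fzd8 and the second Fzd5 and Fzd8 probes lay near background, which limits the size of their differences.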
